A study of Mus musculus with 3 samples.

Results

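The mouse gene Bdnf encodes brain-derived neurotrophic factor, and its chromatin was described here in an ATAC-seq survey of the dentate gyrus. The window of 270 kb around the gene, chr2:109400000-109670000 on the build mm9, was taken, and every deposited peak that overlapped it was a member. That gave 44 of 180380 peaks, 13 of 62912 in replicate 1, 16 of 68699 in replicate 2 and 15 of 48769 in replicate 3. Peaks of different animals that overlapped by at least 1 bp were joined, which gave 18 of the 84529 regions of the series. The gene was placed on mm9 at about 109514800 to 109567200 on the plus strand, a length of 52.4 kb, with 114.8 kb of flank before it and 102.8 kb after it. All positions in kb are distances from this start, negative before the gene, and are exact only to about 0.1 kb because the gene bounds are rounded.

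ATAC-seq uses the transposase Tn5 to insert adapters into open DNA, so that peaks of reads mark accessible chromatin. The 3 samples came from microdissected dentate gyrus of adult C57BL/6 mice, 8 weeks old, with 1 library from each individual. All carry the label E24, whose meaning the labels do not give, and no genotype, transgene or agent is named for them. The series concerns chromatin after neuronal activation, but only this 1 group was analysed here, so the values describe E24 animals and no change with activity was measured.

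BDNF is a secreted growth factor that acts through the receptor TrkB and is known for its part in synaptic plasticity and in the survival and maturation of neurons. Its gene has several alternative first exons with promoters of their own, and most of these exons are spliced to 1 shared 3′ exon that holds the coding sequence. Transcripts from some of these promoters, above all those usually numbered I and IV, are known to rise in neurons after activity, through elements bound by CREB and other factors that respond to calcium. The dentate gyrus, whose granule neurons feed the mossy fibre pathway, is known as a site of abundant Bdnf expression.

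RefSeq lists 7 transcript starts of Bdnf in the promoter table used here, which is on the build GRCm38.p6. They are called starts 1 to 7 from 5′ to 3′. Measured from start 1 on that build, the others lie at 2.33, 17.74, 18.33, 19.71, 34.68 and 48.22 kb. No coordinate was carried from one build to the other. The gene is 52344 bp long in RefSeq and 52400 bp by the rounded mm9 bounds, a difference of 56 bp, and distances along the gene on the 2 builds are set side by side on that basis only. The 250 bases that end just before starts 1, 2, 3 and 7 are printed below. No peak was called at the distance of start 1, and a peak of every animal reached that of start 3. The distances of starts 2 and 7 were each within a peak in 2 animals. Starts 4 and 5, not printed, were within a peak in the same animals as start 2. Start 6, also not printed, was like start 1 within a peak in no animal. Capitals mark matches to TNACGTNA, a pattern that includes the cAMP response element TGACGTCA and reads the same on both strands.
Start 1 (chr2:109674450-109674699, plus strand): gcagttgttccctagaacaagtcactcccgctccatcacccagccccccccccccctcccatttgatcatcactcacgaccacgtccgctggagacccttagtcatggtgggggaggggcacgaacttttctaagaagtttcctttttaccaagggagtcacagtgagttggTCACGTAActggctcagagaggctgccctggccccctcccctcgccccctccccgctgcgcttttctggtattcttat
Start 2 (chr2:109676782-109677031, plus strand): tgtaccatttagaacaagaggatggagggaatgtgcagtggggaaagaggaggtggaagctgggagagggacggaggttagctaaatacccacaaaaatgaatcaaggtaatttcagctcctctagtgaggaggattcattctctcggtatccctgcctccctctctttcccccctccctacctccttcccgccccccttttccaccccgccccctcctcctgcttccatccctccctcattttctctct
Start 3 (chr2:109692186-109692435, plus strand): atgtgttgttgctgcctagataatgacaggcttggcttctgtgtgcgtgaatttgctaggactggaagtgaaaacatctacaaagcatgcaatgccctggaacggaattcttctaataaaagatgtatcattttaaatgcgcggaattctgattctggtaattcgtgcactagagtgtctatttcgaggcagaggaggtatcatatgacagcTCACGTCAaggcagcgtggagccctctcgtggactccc
Start 7 (chr2:109722671-109722920, plus strand): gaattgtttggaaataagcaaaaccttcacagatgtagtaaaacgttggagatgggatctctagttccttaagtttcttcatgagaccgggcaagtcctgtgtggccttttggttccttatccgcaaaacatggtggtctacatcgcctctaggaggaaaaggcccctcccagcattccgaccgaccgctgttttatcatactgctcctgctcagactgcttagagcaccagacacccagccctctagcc

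The match before start 1, TCACGTAA, begins 78 bases before the start. That before start 3, TCACGTCA, begins 38 bases before its start and is the sequence known as the cAMP response element of promoter IV. The pattern was chosen after the sequences were seen. It occurred in 2 of the 7 Bdnf stretches and in 3.83% of all 32851 RefSeq promoter stretches of the same length. The exact element TGACGTCA was in 0 of the 7, against 1.55% of all. Its half-site TGACG, searched on both strands as were all motifs here and overlapping the match before start 3, was in 1 of the 7, against 17.8% of all. The AP-1 site TGACTCA was in 0 of the 7, against 4.46% of all. With a free middle base, TGANTCA, it matched 1 of the 7, as TGAATCA before start 2, against 6.75% of all. The E-box CACGTG and the Egr site GCGNGGGCG were in 0 of the 7, against 6.02% and 4.70% of all. The TATA box TATAAA was also in 0 of the 7, against 12.4% of all. These are matches of letters and show no binding.

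The promoter stretches also differed in base composition. Start 5 had 13 CpG dinucleotides in 250 bases, starts 1 and 3 had 9 each, start 4 had 8 and start 7 had 7, against a median of 6 over all promoters. Start 2 had 4 and start 6 had 1. Start 6 also had the lowest GC content of the 7, 39.2%, against a median of 52.4% over all promoters.

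**Figure D1:**
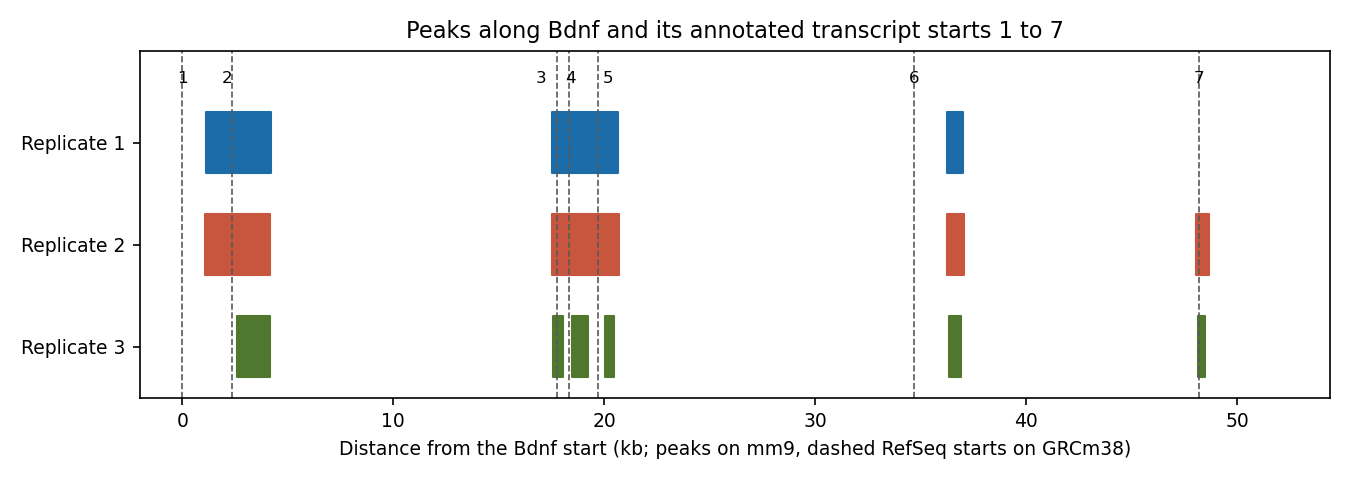
Peaks of each mouse along Bdnf, with distance from the gene start in kb on the x axis and the 3 animals in rows. Dashed lines are the RefSeq starts 1 to 7 at their own distances on GRCm38, and peaks are on mm9. In replicates 1 and 2, broad peaks hold starts 2 to 5, while in replicate 3 only start 3 of these falls within a peak. In no animal does a peak lie at start 1 or start 6, and a peak lies at start 7 in replicates 2 and 3.

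The first 20 kb of the gene, beside starts 1 to 5, had 2 regions, and both were held by all 3 animals. They are called the first and second promoter region by position alone, since no mm9 annotation was used. In replicate 3 the peak of the first region held the distance of no listed start. The first, chr2:109515846-109518999, ran from 1.05 to 4.20 kb. Its peak scored 592 in replicate 1 (rank 4321), 796 in replicate 2 (rank 3673) and 374 in replicate 3 (rank 3808), where rank 1 is the highest score of a list. The score is the peak caller's and has no unit in the files, so it is read by its percentile, the percentage of a list's peaks with a lower score. The percentiles were 93.1, 94.7 and 92.2, a mean of 93.3 ± 1.2 (SD, n = 3). The 3 animals thus placed this region alike.

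In replicates 1 and 2 this peak was 3062 and 3102 bp wide, and in replicate 3 it was 1578 bp. Only 0.157%, 0.198% and 0.785% of the peaks of these lists were at least as wide. The 3′ edges lay at 4.20, 4.15 and 4.17 kb. The 5′ edges lay at 1.14 and 1.05 kb in replicates 1 and 2 and at 2.59 kb in replicate 3. The animals therefore shared the 3′ edge within about 0.1 kb, and the narrower peak of replicate 3 lacked the 5′ part. The distance of start 2 was inside the peaks of replicates 1 and 2 and 0.26 kb before that of replicate 3. Start 1 lay 1.14, 1.05 and 2.59 kb before the nearest peak edge.

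The second promoter region, chr2:109532333-109535488, ran from 17.53 to 20.69 kb, beside starts 3, 4 and 5 at 17.74, 18.33 and 19.71 kb. It had the highest score of the whole window in replicates 1 and 2, at 675 (rank 3273, percentile 94.8) and 835 (rank 3331, percentile 95.2). In replicate 3 its best peak scored 212 (rank 9375, percentile 80.8) and was 4th in the window. The mean percentile was 90.2 ± 8.2 (SD, n = 3), with replicate 3 below the other two.

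One unbroken peak of 3141 bp in replicate 1 and of 3152 bp in replicate 2 covered the distances of all 3 starts. Replicate 3 had 3 separate peaks in the same span, 520, 753 and 420 bp wide, with gaps of 404 and 842 bp between them. Their scores were 101, 150 and 212 in that order. The first ran from 17.55 to 18.06 kb and held the distance of start 3. Start 4 lay 0.14 kb before the second peak, close to the rounding of the gene bounds. Start 5 lay 0.36 kb before the third, in the longer gap. So start 3 was the only one of the 7 whose distance fell within a peak in every animal. Of the 2 starts with a match to TNACGTNA printed above, start 3 was within a peak in every animal and start 1 in none.

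The pair of broad regions stood 13.3 kb apart. Over the series, 189 regions held by all 3 animals (0.513% of these) were at least 3 kb wide once joined. Of the 189, 13 (6.88%) had another such region within 13.3 kb, the Bdnf pair among them. This count was made after the pair had been seen. The widths are those of joined regions, and the widest single peak of the pair in replicate 3 had 1578 bp.

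After its first 20 kb, the gene held 1 region in its middle 27.4 kb and 1 in its last 5 kb. The middle region, chr2:109551048-109551862, ran from 36.25 to 37.06 kb and was held by all 3 animals. It scored 328 in replicate 1, 441 in replicate 2 and 307 in replicate 3, at percentiles of 82.5, 85.4 and 89.2 (mean 85.7 ± 3.3, SD, n = 3). It was the 4th, 3rd and 2nd highest of the window in these animals, and above the second promoter region in replicate 3 alone. Its peaks were 773, 799 and 575 bp wide. In replicates 1 and 2 they were narrower than either peak of the promoter pair, while in replicate 3 the peak was wider than 2 of the 3 short peaks of the second promoter region. The nearest listed start before it, start 6, lay 1.56, 1.58 and 1.67 kb from the peak edge. Whether the region is exonic or intronic was not assigned, since no mm9 annotation was used.

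The region in the last 5 kb, chr2:109562862-109563461, was found in replicates 2 and 3 only. It scored 79.2 in replicate 2 (percentile 26.4) and 85.8 in replicate 3 (percentile 42.8), not far above the lowest score of the lists, 50. Its peaks ran from 48.06 to 48.66 kb and from 48.14 to 48.48 kb, and both held the distance of start 7, at 48.22 kb, which in replicate 3 was 85 bp from the nearer peak edge and so within the rounding of the gene bounds. Replicate 1 had no peak within 11.2 kb of that distance. A missing peak is not shown to be closed chromatin, because the files hold no read counts and the depth is unknown.

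**Figure D2:**
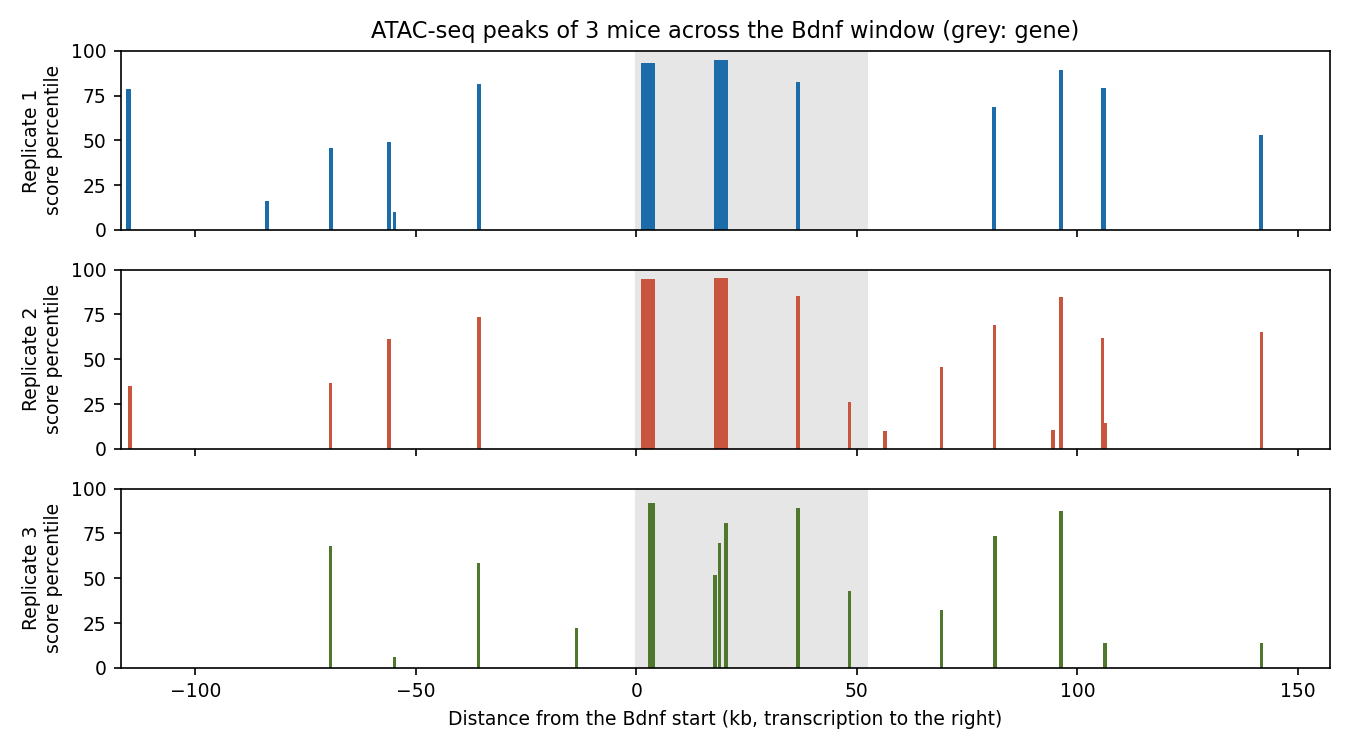
Peaks of each mouse across the window, with distance from the Bdnf start in kb on the x axis and the score percentile within the animal's list on the y axis. Each bar is 1 peak, drawn at least 0.8 kb wide so that it can be seen, and the gene is grey. The widest bars lie in the first 20 kb of the gene, and replicate 3 has 3 narrow bars where the others have 1 broad bar.

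The flank before the gene had 7 regions, of which 2 were held by all 3 animals. The nearer one, chr2:109478768-109479619, lay from -36.03 to -35.18 kb and scored 309, 267 and 115 in replicates 1, 2 and 3. Its percentiles were 81.2, 73.5 and 58.3 (mean 71.0 ± 11.6, SD, n = 3). The farther one, chr2:109445225-109445746, scored 111, 98.3 and 144, at percentiles of 45.8, 36.9 and 67.8 (mean 50.2 ± 15.9, SD, n = 3). Replicate 3 was thus the lowest animal at one and the highest at the other.

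The 5 remaining regions before the gene were held by 1 or 2 animals. At the edge of the window, chr2:109399196-109400232 was held by replicates 1 and 2, at percentiles of 78.7 and 34.9. Replicate 3 also had a peak there, which lay just outside the window and was left out by the rule. A region 678 bp wide at chr2:109458416-109459093 was held by replicates 1 and 2 as well, at 48.9 and 61.6. Replicates 1 and 3 shared a weak region at chr2:109459818-109460130, at percentiles of 9.81 and 6.25. Replicate 1 alone had a peak at chr2:109430909-109431290 (382 bp, percentile 16.3), and replicate 3 alone at chr2:109501135-109501415 (281 bp, percentile 22.1). Between -35.18 kb and the gene start, that last peak was the only one called in any animal.

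The flank after the gene also had 7 regions, and 4 were held by all 3 animals. The strongest, chr2:109610757-109611366, lay at 95.96 to 96.57 kb, beyond the gene end. It scored 459, 426 and 282, at percentiles of 89.3, 84.7 and 87.5 (mean 87.2 ± 2.3, SD, n = 3), and was 3rd, 4th and 3rd in the window. Its peaks were 437 to 610 bp wide. This distal region therefore ranked beside the middle region of the gene in every animal.

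Another region shared by the 3 animals, chr2:109595505-109596356, scored 197, 228 and 170, at percentiles of 68.4, 69.0 and 73.7 (mean 70.4 ± 2.9, SD, n = 3). The last 2 shared regions differed more between animals. At chr2:109620125-109621296 the percentiles were 79.1, 62.0 and 13.9 (mean 51.7 ± 33.8, SD, n = 3), with 2 peaks in replicate 2 and 1 in each other animal. The value of replicate 2 is that of its higher-scoring peak, which the peak of replicate 3 did not overlap. The other peak of replicate 2, which it did overlap, had a percentile of 14.5. At chr2:109656025-109656712 they were 52.7, 65.2 and 13.7 (mean 43.9 ± 26.9, SD, n = 3). Replicate 3 was the lowest animal at both.

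Replicates 2 and 3 shared chr2:109583786-109584183, at percentiles of 45.6 and 32.1. Replicate 2 alone had chr2:109570969-109571412 (444 bp) and chr2:109609035-109609360 (326 bp), at percentiles of 10.1 and 10.8. In the RefSeq gene order on GRCm38, the pseudogenes Gm13924 and Gm13932 are the nearest entries on the 2 sides of Bdnf, and the nearest protein-coding genes are Kif18a before it and Lin7c after it. None of the flanking regions was assigned to a gene.

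**Figure D3:**
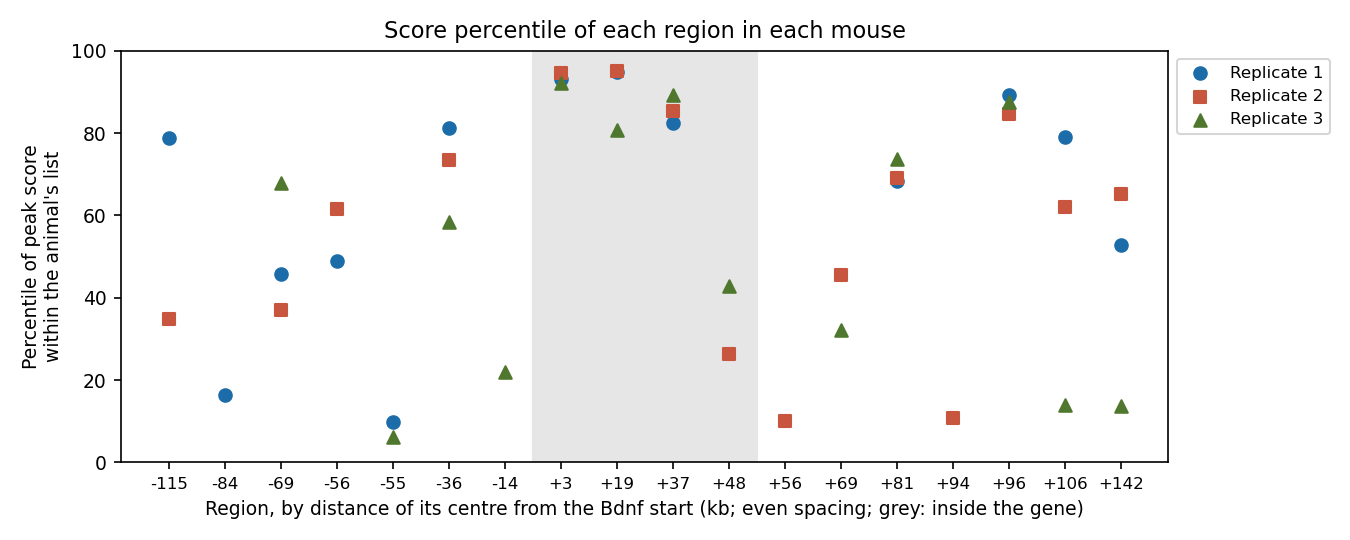
Score percentile of each of the 18 regions in each mouse, ordered along the chromosome and labelled by the distance of the centre from the Bdnf start in kb. A missing symbol means that no peak of that animal overlapping the window was called there. At the edge region, labelled -115 kb, replicate 3 has no symbol because its peak lay just outside the window. The symbols of the regions at +3, +37, +81 and +96 kb lie close together, while those at +106 and +142 kb are spread, with replicate 3 at 13.9 and 13.7.

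Ordered by mean percentile, the 9 regions held by all 3 animals began with the first promoter region (93.3), the second promoter region (90.2), the distal region at 96 kb (87.2) and the middle region (85.7). Neighbours among these 4 overlapped in their range over animals. The next, the nearer shared region before the gene (71.0), did not overlap the middle region: its highest animal stood at 81.2 and the lowest of the middle region at 82.5. It did overlap the second promoter region, whose lowest animal, replicate 3, stood at 80.8. The region at 81 kb (70.4), that at 106 kb (51.7), the one 69 kb before the gene (50.2) and that at 142 kb (43.9) followed, each overlapping its neighbour. Regions held by 1 animal had percentiles of 10.1 to 22.1, and those held by 2 animals of 6.25 to 78.7.

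The number of regions was compared with the rest of the genome. Of the 18 regions, 9 were held by all 3 animals, 5 by 2 and 4 by 1. The share held by all 3, 50% (exact Clopper-Pearson 95% interval 26.0% to 74.0%, counting error only), is read against 43.6% of all regions of the series, which lies inside the interval. Inside the gene it was 3 of 4 and in the flanks 6 of 14. The background came from whole lists, while the peaks of the window were joined after the cut, also for the counts by peaks given next. With whole lists joined first, 10 of 18 regions of the window were shared by all 3 animals, and 7 of 14 in the flanks. By peaks, 9 of 13 in replicate 1, 10 of 16 in replicate 2 and 11 of 15 in replicate 3 belonged to regions held by all 3, against 59.4%, 54.1% and 78.9% of their whole lists. Sharing near Bdnf was thus near the background.

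The count of regions was higher than in most windows of this size. Counted by midpoint, the Bdnf window had 17 regions, 9 of them held by all 3 animals, whereas the 8951 windows of 270 kb laid end to end over the autosomes had medians of 8 and 3. Of these windows, 11.5% held as many regions or more, and 8.70% held as many or more shared by all 3. On chromosome 2 alone the percentages were 9.67% and 6.50% of 662 windows. Windows without any region, 4.21% of those on autosomes, were kept. The gaps between neighbouring shared regions ran from 8.76 to 43.6 kb, with a median of 24.3 kb over 8 gaps, against 35.1 kb over the series. Only gaps lying wholly inside the 270 kb window were counted, a bound the series gaps do not have. A higher count of shared regions also shortens the gaps, so this is not a separate result.

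The length inside peaks was compared between the gene, its flanks and the autosomes. Peaks covered 27.7% of the first 20 kb in replicate 1, 27.8% in replicate 2 and 14.3% in replicate 3. Over the whole gene they covered 13.3%, 14.6% and 7.99% (mean 12.0% ± 3.5, SD, n = 3). The flanks had 2.75%, 2.52% and 1.37% (mean 2.21% ± 0.74, SD, n = 3), and all autosomes 1.53%, 1.71% and 0.846%. The values of the gene and of the flanks did not overlap: the lowest gene value, 7.99%, was above the highest flank value, 2.75%.

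Within animals, the gene was covered 4.85, 5.80 and 5.85 times as densely as its flanks, a mean of 5.50 ± 0.57 (SD, n = 3). The flanks in turn were covered 1.80, 1.47 and 1.62 times as densely as the autosomes. The difference between gene and flanks was 9.76 ± 2.82 percentage points (SD, n = 3) and had the same sign in 3 of 3 animals. An exact two-sided permutation test that flips the sign of each animal's difference gave p = 0.25, the smallest that 3 animals allow. Replicate 3, with the shortest list, had the lowest covered share in each of these stretches. The 2 promoter regions made up 47.9%, 47.6% and 45.7% of the length inside peaks in the window (mean 47.1% ± 1.2, SD, n = 3), so their share of it was nearly equal in the 3 animals.

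**Figure D4:**
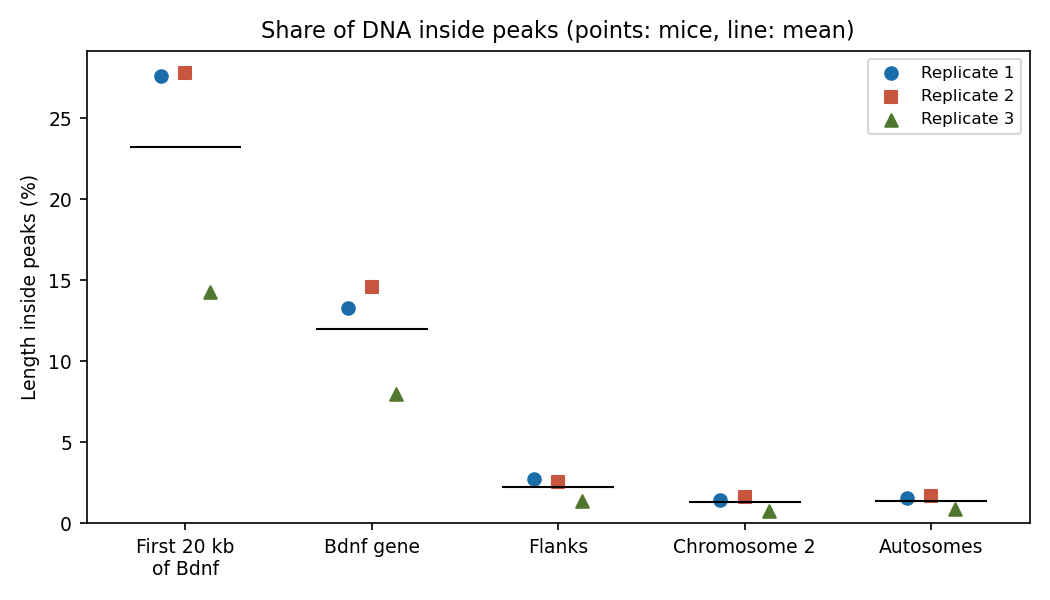
Share of the length inside peaks, in percent on the y axis, for the first 20 kb of Bdnf, the whole gene, its flanks, chromosome 2 and all autosomes. Each point is 1 mouse and the line is the mean of 3. The points of the gene, from 7.99% to 14.6%, lie above all those of the flanks, and replicate 3 is lowest in every stretch.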

How the data were processed

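Alignment was to mm9 and used Bowtie2, per the submitters' processing notes. The deposited files are 1 peak list per animal, and the peak names are those of the caller MACS. Not given in the sources used here are versions, caller settings, duplicate handling and whether reads were shifted for Tn5. Beside its position and name, each peak has a score from the authors' caller, deposited without a unit. It depends on depth, which is unknown, so it was used only as a rank or percentile within a list. A floor on the score leaves weak sites out of a list, most of all in a shallow library, and the caller's joining of nearby signal sets peak width.

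Peaks overlapping the window were joined by 1 bp overlap, regions were placed by midpoint, and all are named. Positions count from 1. Lengths between the outer peaks stood for chromosome lengths. RefSeq sequences (GRCm38.p6) matched by symbol, with 7 entries for Bdnf. Since no mm9 annotation was used, the lists of Bdnf pathway genes and of cell type markers were not computed, and the labelled tissue was not checked by markers. The members and lists were chosen with earlier results of these data known. Alternatives were the highest-scoring 50% of each list, equal list lengths, 50% reciprocal overlap, the gene alone, width in place of score, and leaving out each replicate. Joining, ranking and coverage were tested on simulated lists. The work used matplotlib 3.10.9, scipy 1.17.1, pandas 2.3.3 and numpy 2.4.6 under Python 3.11.15.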

Additional observations from a re-analysis of the deposited data

How the results depend on the processing

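Of 38 alternative values for 6 results, 29 stayed within the spread between animals, the counting interval or a factor of 1.5. These limits are loose: the counting interval for the shared part in the gene ran from 19.4% to 99.4%. The 29 also include a fall from 9 to 6 shared regions with the highest-scoring 50% of each list, at the limit of that factor. Median percentiles and covered shares in this section are means over animals of the value in each list. With the highest-scoring 50% of each list, the window held 11 regions in place of 18. The median score percentile of its peaks, ranked within the shorter lists, was 52.3 ± 8.7 in place of 66.3 ± 10.9 (SD, n = 3). Asking for 50% overlap of both peaks left 4 regions held by all 3 animals in place of 9, and 14.3% of the regions in the flanks in place of 42.9%. Those 4 were the first promoter region, the middle region, the one at 96 kb and the one 69 kb before the gene. The first promoter region passed only narrowly, with a peak of 1578 bp in replicate 3 against one of 3102 bp in replicate 2. The second promoter region was not among them, since replicate 3 had 3 short peaks there. Within the gene bounds alone there were 4 regions, 3 of them held by all 3, a covered share of 12.0% in place of 4.10% and a median percentile of 86.1. Without 1 replicate, the window held 16 to 18 regions, 10 to 11 of them in both remaining animals, covered shares of 3.73% to 4.83% and median percentiles of 60.1 to 70.3. The shared part was then 75.0% to 100% in the gene (100% without replicate 1) and 50% to 61.5% in the flanks. Fewer animals to match raise sharing by construction. Joining whole lists before taking the window, chosen after seeing the data, gave 10 shared regions, because replicate 3 had a peak just outside the edge. No paired analysis was possible because no other group was analysed to pair with E24. The comparison of gene and flanks is within animals.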
